A study of Mus musculus with 27 samples.

Results

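The 8 genes described here, Esrp1, Esrp2, Rbm47, Rbfox2, Mbnl1, Mbnl2, Celf1 and Ptbp1, encode RNA-binding regulators of alternative splicing, and they were taken by symbol from the 24953 genes of the deposited RNA-seq table. All 8 symbols were in the table. The values are gene-level TPM (a read share corrected for gene length), so they give the amount of each regulator's mRNA and carry no information on exon inclusion. RNA was measured in mK4 cells, a mouse kidney metanephric mesenchyme cell line, in 3 groups of 3 libraries. The control group was wild-type mK4. The Runx1KO group was mK4 from which CRISPR-Cas9 had deleted exon 3 of Runx1, the exon with the start codon used in these cells. The ZebDKO group was mK4 in which the start-codon exons of both Zeb1 and Zeb2 had been deleted, and Runx1 was not targeted in it. All groups were grown to near confluence in medium with fetal bovine serum and without further treatment. Libraries of a group were replicate cultures of a line, and neither how many clones a group held nor a library batch was given in the sources used here, so a clone or batch effect and the genotype cannot be told apart and p-values measure the spread between cultures.

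Esrp1 and Esrp2 are splicing factors made mainly by epithelial cells, where they favour the epithelial exon choices of transcripts such as Fgfr2, Cd44, Ctnnd1 and Enah, and their loss accompanies the passage from an epithelial to a mesenchymal state. Rbfox2, Mbnl1, Mbnl2, Celf1 and Ptbp1 are made in most tissues and act on overlapping sets of exons, often in a direction set by where they bind beside the exon. Zeb1 and Zeb2 are repressors of epithelial genes that bind E-box sequences, and Runx1 is a sequence-specific factor of the Runt family whose paralogue Runx2 is also present in mK4 cells.

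The 9 libraries were alike in general measures. Between 12541 and 12697 genes reached 1 TPM, the 100 most abundant genes held 18.6 to 19.7% of all TPM, and the lowest correlation between libraries of a group was 0.997. Read totals cannot be recovered from TPM, so the depth is unknown and no counting interval is given. At the gene level the targeted genes were no check of the deletions, since only 1 exon of each was removed: Runx1 stood at 18.7, 15.6 and 17.9 TPM in control cells and rose to 30.3, 30.1 and 28.5 TPM in Runx1KO, and Zeb1 stood at 15.1, 14.2 and 15.6 TPM in control cells and at 16.8, 16.6 and 14.8 TPM in ZebDKO. In Runx1KO the Zeb1 level was 0.1, 0.2 and 0.2 TPM. Zeb2 was at 5.5, 4.9 and 5.2 TPM in control cells, at 0.2 TPM in every Runx1KO library and at 1.7, 1.8 and 1.6 TPM in ZebDKO. The 10 epithelial markers summed to 3.3 to 5.9 TPM in control, 2663 to 2744 TPM in Runx1KO and 1151 to 1210 TPM in ZebDKO, with 1, 6 and 5 of the 10 at 1 TPM or more in all libraries of the group. Krt8, a keratin of simple epithelia, made up most of these sums in the knockouts, at 2302 to 2394 TPM in Runx1KO and 1027 to 1087 TPM in ZebDKO. Cdh1 stayed at or below 0.6 TPM throughout, and Epcam was listed at 0 in control and Runx1KO and at 28.3, 26.7 and 28.8 TPM in ZebDKO. Of the 11 metanephric mesenchyme markers, 6 reached 1 TPM in all control libraries, while Six2, Wt1, Hoxd11, Cited1 and Meox1 did not. Other markers also moved. The means of Osr1 in control, Runx1KO and ZebDKO were 66.4, 0.4 and 18.2 TPM, and those of Gdnf 12.7, 0.1 and 39.8 TPM. Those of the mesenchymal Fn1 were 52.6, 18.0 and 97.3 TPM, and those of the myeloid receptor Csf1r 0.7, 29.7 and 24.5 TPM. Not all markers of their lists followed them. In the same order the 11 metanephric mesenchyme markers summed to 671 to 682, 716.5 to 784.6 and 615.5 to 645.7 TPM. Pax2 means were 313, 470 and 222 TPM. The 10 general mesenchymal markers, mostly Vim, summed to 3082 to 3212, 2952 to 3014 and 2362 to 2396 TPM. Of the haematopoietic markers, Ptprc, Adgre1 and Hbb-b1 were listed at 0 throughout, and Cd68 was between 1.8 and 3.1 TPM. The part of all these markers in the members' values was not tested. In bulk RNA fewer cells of a type and less RNA per cell cannot be told apart.

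In Runx1KO cells the epithelial regulators Esrp1 and Rbm47 were higher than in control cells, Rbfox2, Celf1 and Mbnl2 were lower, and Mbnl1 and Ptbp1 did not pass the test. Rbm47 was 1.79 times its control mean, and Rbfox2 was 0.629 times its control mean. In ZebDKO cells the pattern was another one: Mbnl1 was the member that fell most, to 0.578 times the control mean, with lower Mbnl2, Celf1 and Rbfox2, a slightly higher Ptbp1 and no detected change of Rbm47. The lower Rbfox2 and higher Ptbp1 in ZebDKO and the lower Mbnl2 in Runx1KO did not pass under every scaling, as given below. Passing the test means an adjusted p under 0.05 from limma on log2(TPM + 1), run on every gene that reached 1 TPM in 3 or more of the 6 libraries of a comparison, and a gene was called where it also changed over 2-fold on that scale. Against control, 2 of the 7 members tested rose and 3 fell in Runx1KO, beside 30.4% of all 13067 genes higher and 40.1% lower. In ZebDKO 1 of 6 rose and 4 fell, beside 26.9% of 12974 genes higher and 52.5% lower. Esrp1 entered the Runx1KO test only through the group where it is high, so it had to differ, and with it set aside 1 of 6 members rose and 3 fell. With Esrp1 set aside, 0 of 6 members were called in Runx1KO, where 13.0% of all genes were, and 0 of 6 were called in ZebDKO, where 14.8% were. Both comparisons use the same 3 control libraries. The groups did not overlap for 73.7% of genes tested in Runx1KO against control and 81.0% in ZebDKO against control. Between the knockouts the share was 81.7%, so a lack of overlap was usual for a gene.

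**Figure D1:**
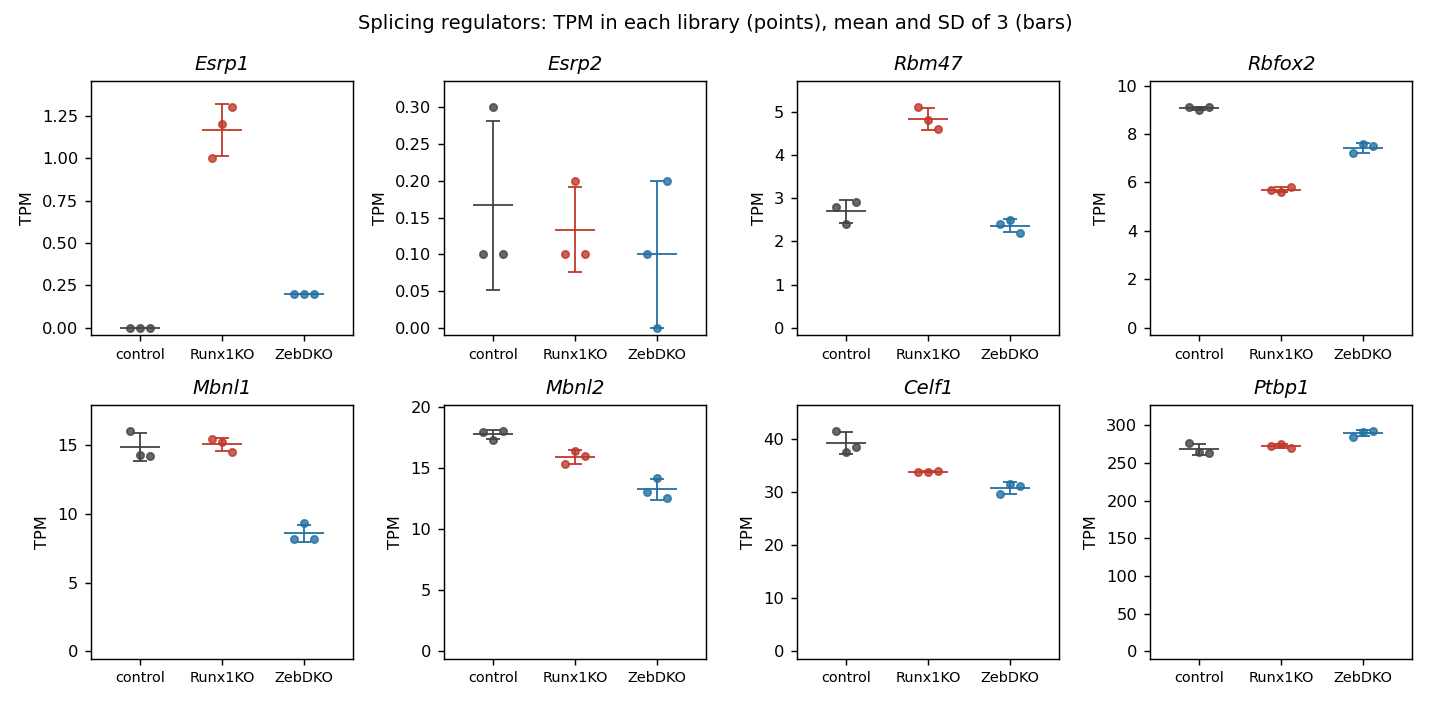
TPM of the 8 splicing regulators in each library, one panel per gene with its own linear axis in TPM; points are the 3 libraries of control, Runx1KO and ZebDKO, and bars the mean and SD. Esrp1 is above 0 in the knockout groups and highest in Runx1KO, Rbm47 is near 5 TPM in Runx1KO and between 2.2 and 2.9 TPM elsewhere, Rbfox2 is lowest in Runx1KO, and Mbnl1 is lowest in ZebDKO.

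Per unit length, the order of the members' levels in control cells ran from Ptbp1 (268 TPM) through Celf1 (39.1), Mbnl2 (17.7), Mbnl1 (14.8), Rbfox2 (9.07) and Rbm47 (2.70) to Esrp2 and Esrp1, and no neighbours in this order overlapped between libraries except that Esrp2 and Esrp1 were both near 0. In Runx1KO the libraries of Mbnl2 (15.3 to 16.4 TPM) and Mbnl1 (14.5 to 15.4 TPM) overlapped, so their order was not resolved. In ZebDKO, Esrp1 at 0.2 TPM in each library and Esrp2 at 0.1, 0 and 0.2 TPM were not resolved either. The place of Rbfox2 in the order depends on the table. In a separate deposited table of the 6 control and Runx1KO libraries with another set of gene lengths, Rbfox2 averaged 50.6 TPM in control against 47.4 TPM for Mbnl1, but the libraries overlapped (Rbfox2 at 50.58, 50.47 and 50.81 TPM, Mbnl1 at 51.11, 46.52 and 44.66 TPM), so their order in control was not resolved there.

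Esrp1, the better known of the epithelial Esrp pair, was listed at 0 TPM in all 3 control libraries. It was at 1, 1.2 and 1.3 TPM in Runx1KO and at 0.2 TPM in each ZebDKO library. Every Runx1KO library was above every other library, and no library of control and ZebDKO overlapped, although the ZebDKO level was only 2 steps of the 0.1 TPM to which the table is rounded. Against control at 0 no fold can be given. On the log2(TPM + 1) scale the difference between Runx1KO and control was 1.11 ± 0.10 (SE, n = 3 and 3), a size that depends on the pseudocount. Esrp1 entered the test only through the Runx1KO libraries and so had to differ once it was in, and no p is given. In the 6-library table it was again listed at 0 in control and at 1.45, 1.75 and 2.08 TPM in Runx1KO.

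Between the knockouts Esrp1 averaged 0.171 times as much in ZebDKO as in Runx1KO, a log2 difference of -0.85 ± 0.10. Here too the gene entered the test only through the Runx1KO libraries, so this difference is given as a description with no p. In ZebDKO against control it did not reach the level filter and was not tested. The epithelial marker Grhl2, a transcription factor of epithelial cells, had a similar order of levels, with 0.1 TPM in each control library, 5, 5 and 4.9 TPM in Runx1KO and 1.1, 1.4 and 0.9 TPM in ZebDKO. By group means, the epithelial markers Krt8, Krt19 and Cldn4 had this order too. Krt18 (0.13, 32.4 and 42.8 TPM in control, Runx1KO and ZebDKO), Epcam and Cdh1 were instead highest in ZebDKO. In the same order Ovol1 was at 0.73, 3 and 0.73 TPM, and Cldn3 and Cldn7 stayed at or below 0.4 TPM. The part of the epithelial marker level in the Esrp1 values was not tested.

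Esrp2, the paralogue of Esrp1 with largely shared exon targets, was close to 0 in every library. It was at 0.1, 0.3 and 0.1 TPM in control cells, at 0.1, 0.2 and 0.1 TPM in Runx1KO and at 0.1, 0 and 0.2 TPM in ZebDKO. The 3 groups overlapped, and the gene was below the level filter in all 3 comparisons, so that a difference was not detectable at these levels. Esrp2 and Esrp1 thus had unlike values in Runx1KO, where Esrp1 was at least 1 TPM in every library and Esrp2 at most 0.2 TPM.

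Rbm47, an RNA-binding protein of epithelial tissues that also acts with A1cf in cytidine editing of mRNA, was at 2.8, 2.4 and 2.9 TPM in control cells and at 5.1, 4.8 and 4.6 TPM in Runx1KO. In ZebDKO it was at 2.4, 2.5 and 2.2 TPM. The Runx1KO libraries were all above the rest, while control and ZebDKO overlapped. Rbm47 rose in Runx1KO by 0.66 ± 0.08 on the log2(TPM + 1) scale (95% interval 0.47 to 0.84; limma adjusted p = 0.000232). In ZebDKO the difference from control was -0.13, with a 95% interval from -0.34 to 0.07 (adjusted p = 0.184), and its sign turned to 0.01 under median-ratio scaling. ZebDKO was lower than Runx1KO by a log2 difference of -0.79 ± 0.07 (adjusted p = 3.09e-05). A1cf was listed at 0 in every library.

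Rbfox2, which binds beside exons and is active in mesenchymal as well as muscle and nerve cells, was at 9.1, 9 and 9.1 TPM in control cells and at 5.7, 5.6 and 5.8 TPM in Runx1KO. The ZebDKO libraries, at 7.2, 7.6 and 7.5 TPM, lay between these groups, with no overlap among the 3. Rbfox2 fell in Runx1KO, with a log2 difference of -0.59 ± 0.05 (95% interval -0.70 to -0.48; limma adjusted p = 3.02e-05). In ZebDKO the difference from control was -0.26 ± 0.05 (adjusted p = 0.00228), but it did not pass under median-ratio scaling (-0.08, adjusted p = 0.198) or quantile normalisation (-0.04, adjusted p = 0.478). ZebDKO was above Runx1KO by 0.33 ± 0.05 (adjusted p = 0.000627), and this held under both other scalings. In the 6-library table Rbfox2 was at 50.58, 50.47 and 50.81 TPM in control cells and 31.29, 31.34 and 32.1 TPM in Runx1KO, again without overlap, and of 12631 genes 104 had a higher ratio of this table to the main one, with a median ratio of 0.605.

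The muscleblind proteins Mbnl1 and Mbnl2 bind overlapping RNA motifs and are known for their sequestration in myotonic dystrophy. Mbnl1 was at 16, 14.3 and 14.2 TPM in control cells and at 15.4, 15.2 and 14.5 TPM in Runx1KO. The ZebDKO libraries were at 8.2, 9.3 and 8.2 TPM, below all others, while control and Runx1KO overlapped. Mbnl1 fell in ZebDKO by a log2 difference of -0.73 ± 0.07 (95% interval -0.90 to -0.56; limma adjusted p = 5.26e-05). In Runx1KO the difference from control was 0.02, with a 95% interval from -0.12 to 0.16 (adjusted p = 0.775). ZebDKO against Runx1KO gave -0.75 ± 0.06 (adjusted p = 1.86e-05).

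Mbnl2 was at 17.9, 17.3 and 18 TPM in control cells, at 15.3, 16.4 and 16 TPM in Runx1KO and at 13, 14.2 and 12.5 TPM in ZebDKO, and the 3 groups did not overlap. It fell in ZebDKO by a log2 difference of -0.40 ± 0.06 (limma adjusted p = 0.000394), under every scaling. The smaller difference in Runx1KO, -0.15 ± 0.04 (adjusted p = 0.0170), was lost under median-ratio scaling (-0.09, adjusted p = 0.0968). It was also lost without Runx1KO replicate 1 (-0.12, adjusted p = 0.0612) or control replicate 3 (-0.14, adjusted p = 0.0507). ZebDKO against Runx1KO gave -0.25 ± 0.06 (adjusted p = 0.00498), which did not pass under median-ratio scaling (-0.10) or quantile normalisation (-0.03).

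Celf1, known as an antagonist of Mbnl proteins on shared exons, was at 41.4, 37.5 and 38.5 TPM in control cells, at 33.8, 33.7 and 33.9 TPM in Runx1KO and at 29.5, 31.5 and 31.1 TPM in ZebDKO. The 3 groups did not overlap. Celf1 fell in both knockouts, by log2 differences of -0.20 ± 0.04 in Runx1KO (limma adjusted p = 0.00403) and -0.34 ± 0.05 in ZebDKO (adjusted p = 0.000464). Between the knockouts it was -0.14 ± 0.04 (adjusted p = 0.0113), but the sign turned to 0.02 under median-ratio scaling and 0.04 under quantile normalisation, and the difference then did not pass the test.

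Ptbp1, the polypyrimidine tract binding protein that represses many exons outside nerve and muscle, was the most abundant member in every group. It was at 276.7, 264.5 and 263.5 TPM in control cells, at 272.2, 274.9 and 269.7 TPM in Runx1KO and at 284.7, 290.9 and 292 TPM in ZebDKO. The ZebDKO libraries were above all others, and control and Runx1KO overlapped. The difference in Runx1KO was 0.02 (95% interval -0.04 to 0.09; limma adjusted p = 0.499) but passed under median-ratio scaling, at 0.08 (adjusted p = 0.0303). In ZebDKO Ptbp1 was 1.08 times its control mean, a log2 difference of 0.11 ± 0.03 (adjusted p = 0.0113), which did not pass under quantile normalisation (0.04, adjusted p = 0.218). Against Runx1KO it was 0.09 ± 0.02 (adjusted p = 0.00958), again not past the threshold under quantile normalisation (0.01).

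**Figure D2:**
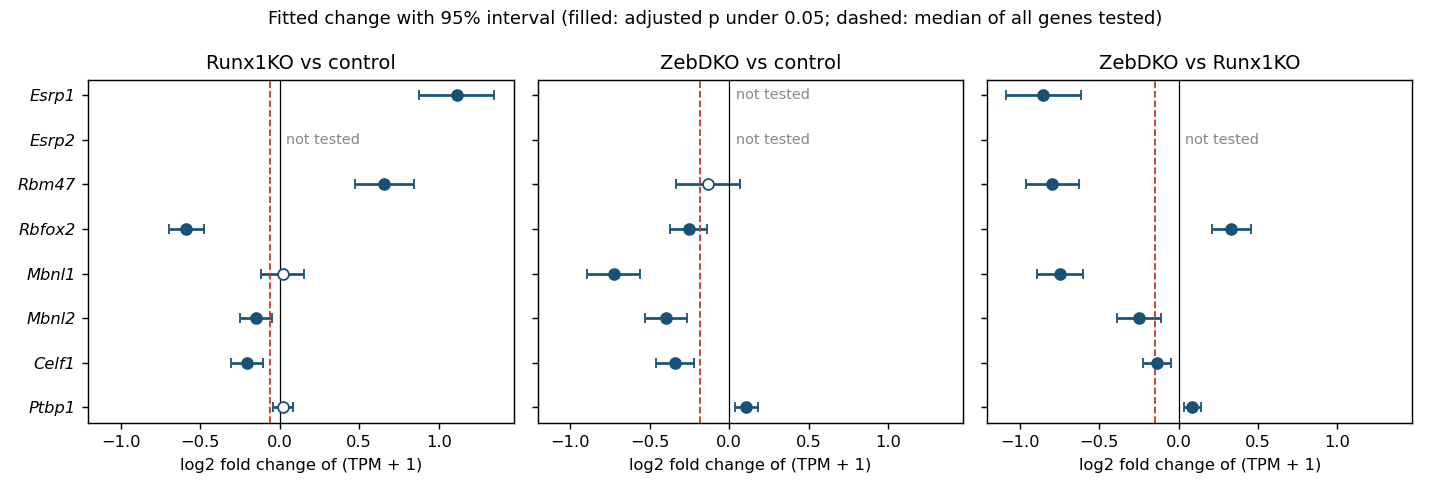
Difference on the log2(TPM + 1) scale of each tested member in Runx1KO against control, ZebDKO against control and ZebDKO against Runx1KO, with 95% intervals; filled points have an adjusted p under 0.05 and dashed lines mark the median of all genes tested. Esrp1 and Rbm47 lie on the higher side in Runx1KO and Rbfox2 on the lower, Mbnl1 is lowest in ZebDKO at -0.73, and the Rbfox2 and Ptbp1 differences from control in ZebDKO, -0.26 and 0.11, do not pass under quantile normalisation, nor Rbfox2 under median-ratio scaling.

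Set directly against Runx1KO, ZebDKO was higher in 2 of 7 members and lower in 5, or in 4 of 6 without Esrp1, beside 29.8% of 13071 genes higher and 50.2% lower, and 0 of 7 were called, beside 15.8%. The members had a median log2 difference of -0.25, beside -0.15 over all genes. The medians against control were 0.02 for the 7 members and -0.06 for all genes in Runx1KO, and -0.30 for the 6 members and -0.18 for all genes in ZebDKO. The median size of change, without sign, was 0.205 in Runx1KO and 0.298 in ZebDKO for the members, beside 0.280 and 0.411 for all genes, with no test of the difference, and the value for all genes in ZebDKO includes their downward shift. The member medians of both comparisons with Runx1KO libraries include Esrp1, which had to differ there.

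Since most genes were lower in ZebDKO by TPM, the members were also read relative to the median gene of each comparison. On that basis Mbnl1 in ZebDKO was at -0.54, Mbnl2 at -0.21 and Celf1 at -0.16 on the log2 scale. Rbfox2 was at -0.07 and Rbm47 at 0.05, near the median gene. Ptbp1 was at 0.29, although its difference from control in ZebDKO did not pass under quantile normalisation, as given above. In Runx1KO the corresponding values were 1.17 for Esrp1, 0.72 for Rbm47 and -0.53 for Rbfox2, with Celf1 at -0.15, Mbnl2 at -0.09 and both Mbnl1 and Ptbp1 at 0.08. Between ZebDKO and Runx1KO, Celf1 was at 0.01 and Rbfox2 at 0.48.

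**Figure D3:**
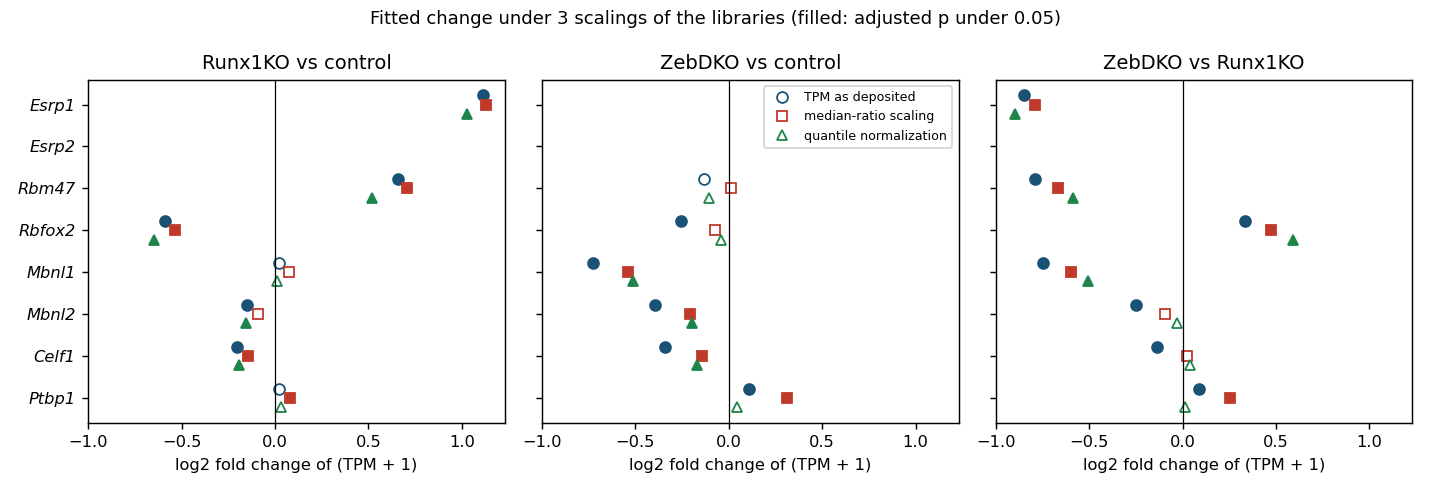
Log2 difference of each tested member under TPM as deposited, median-ratio scaling and quantile normalisation, for the 3 comparisons. The members with the larger differences (Esrp1, Rbm47 and Rbfox2 in Runx1KO, Mbnl1 in ZebDKO) keep their sign under all 3, while Celf1 between ZebDKO and Runx1KO goes from -0.14 to 0.02 and 0.04, and Rbm47 in ZebDKO goes from -0.13 to 0.01 under median-ratio scaling.

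Of the 12 paralogues of the members, 5 were expressed highly enough to be tested, and Rbfox1, Rbfox3, Celf3 and Rbm46 were listed at 0 throughout. In Runx1KO 3 of the 5 rose and 2 fell, beside 30.4% of all genes higher and 40.1% lower. Mbnl3, the muscleblind paralogue of Mbnl1 and Mbnl2, was at 4.2, 3.9 and 3.9 TPM in control cells and 10.2, 9.6 and 10.4 TPM in Runx1KO, a log2 difference of 1.15 (limma adjusted p = 2.89e-06). It was at 3.7, 4.5 and 3.7 TPM in ZebDKO, overlapping control. Celf2 was at 3.4, 2.7 and 3 TPM in control, 5.5, 5.6 and 5.6 TPM in Runx1KO and 1.9, 2.2 and 2 TPM in ZebDKO, so that it rose in Runx1KO (0.71, adjusted p = 0.000157) and fell in ZebDKO (-0.41, adjusted p = 0.00432). Its paralogue Celf5 fell in both, from 3.8, 3.5 and 3.7 TPM to 1 TPM in each Runx1KO library and 0.8, 0.9 and 0.9 TPM in ZebDKO.

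The Ptbp1 paralogues moved more than Ptbp1. Ptbp2, the neuronal form of the protein, was at 87.9, 82.7 and 91.7 TPM in control and fell to 49.7, 50.5 and 53.4 TPM in Runx1KO (-0.76, limma adjusted p = 8.62e-06) and 67.7, 68.9 and 64.9 TPM in ZebDKO (-0.37, adjusted p = 0.000185). Ptbp3 was at 64.9, 58.7 and 62.7 TPM in control cells and 74.6, 72.2 and 74.2 TPM in Runx1KO (0.24, adjusted p = 0.00156). In ZebDKO it was at 32.1, 35.7 and 33 TPM, below every other library (-0.87, adjusted p = 5.97e-06). In ZebDKO, then, 4 of the 5 paralogues tested fell and 0 rose, beside 52.5% of all genes lower and 26.9% higher. These directions held under both other scalings. Celf5, counted as fallen, entered the ZebDKO test only through the control libraries and had to differ.

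**Figure D4:**
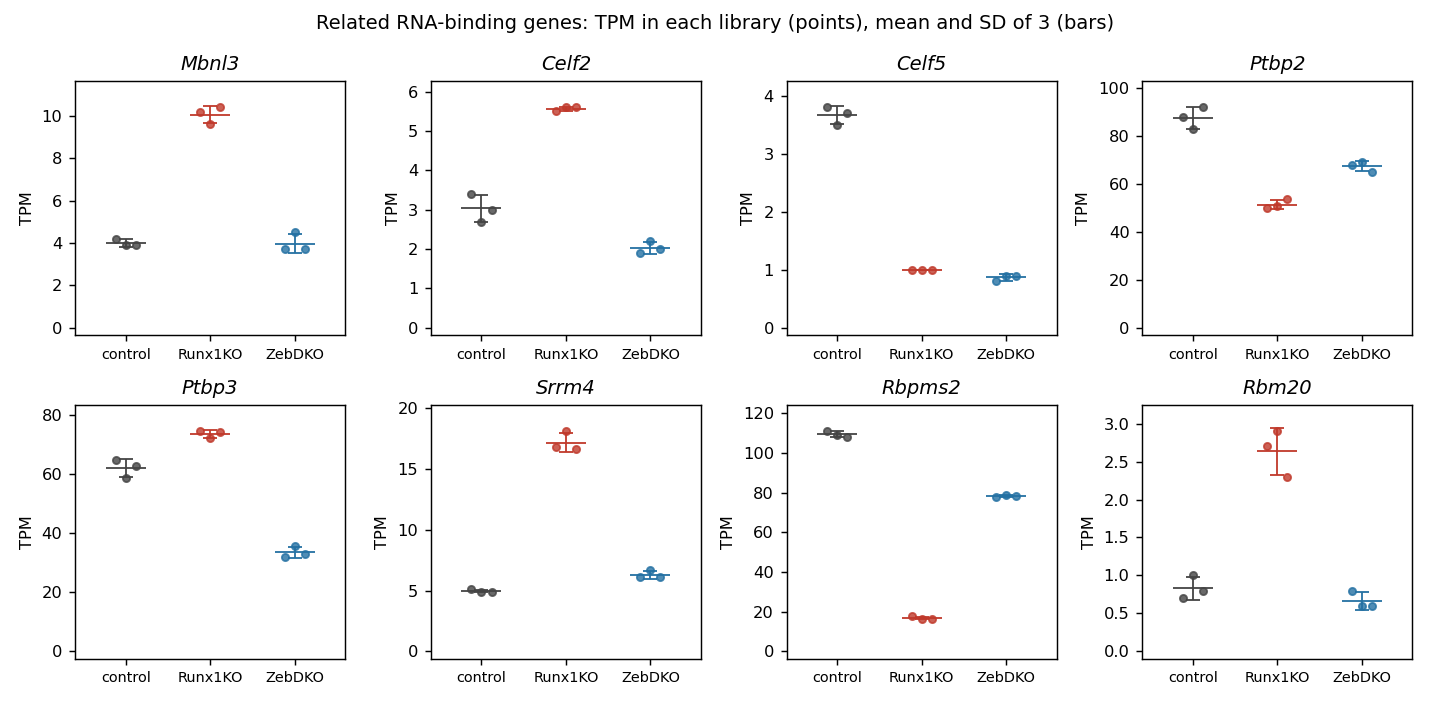
TPM per library of 8 related splicing regulators in control, Runx1KO and ZebDKO, one panel per gene with its own linear axis; points are libraries and bars the mean and SD of 3. Mbnl3, Celf2, Srrm4 and Rbm20 are highest in Runx1KO, Rbpms2 is lowest there at 16.4 to 17.6 TPM, Ptbp3 is lowest in ZebDKO, and Celf5 is low in both knockouts.

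Of 27 other RNA-binding regulators of alternative splicing, 18 were tested in Runx1KO and 17 in ZebDKO. In Runx1KO 4 rose and 7 fell, beside 30.4% of all genes higher and 40.1% lower. In ZebDKO 4 rose and 9 fell, beside 26.9% of all genes higher and 52.5% lower. The median log2 differences of the list were -0.07 and -0.09, beside -0.06 and -0.18 over all genes. In ZebDKO the split turned to 9 higher and 6 lower under median-ratio scaling, with a median of 0.11, and was 6 and 7 under quantile normalisation. Srrm4, an activator of neuronal microexons, was at 5.1, 4.9 and 4.9 TPM in control, 16.8, 18.1 and 16.6 TPM in Runx1KO and 6.1, 6.7 and 6.1 TPM in ZebDKO. It rose by a log2 difference of 1.61 in Runx1KO (limma adjusted p = 3.19e-07) and 0.29 in ZebDKO (adjusted p = 0.00346). Rbpms2, a regulator of smooth muscle phenotype, was at 111, 109.2 and 107.9 TPM in control, 17.6, 16.5 and 16.4 TPM in Runx1KO and 77.6, 79 and 78.4 TPM in ZebDKO. Its fall in Runx1KO, by a log2 difference of -2.63 (adjusted p = 9.31e-09), was larger than that of any of the 7 members tested. Rbm20, a splicing factor of titin in heart, was at 0.7, 1 and 0.8 TPM in control cells and 2.7, 2.9 and 2.3 TPM in Runx1KO (0.99). Its entry to that test rested on the Runx1KO libraries, so no p is given. In ZebDKO Rbm20 was at 0.8, 0.6 and 0.6 TPM.

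Among general splicing factors, 4 of the 12 SR proteins tested rose and 3 fell in Runx1KO, and 1 rose and 10 fell in ZebDKO. Beside this list and the next, 30.4% of all genes were higher and 40.1% lower in Runx1KO. In ZebDKO 26.9% of all genes were higher and 52.5% lower. Under median-ratio scaling the ZebDKO split became 3 higher and 5 lower, and under quantile normalisation 1 and 8. Of 22 hnRNP and Pcbp genes, 2 rose and 8 fell in Runx1KO (6 and 7 under median-ratio scaling, 3 and 8 under quantile normalisation) and 5 rose and 15 fell in ZebDKO, where median-ratio scaling gave 8 and 7 and quantile normalisation 4 and 16. The SR and hnRNP genes had median log2 differences of -0.28 and -0.23 in ZebDKO, beside -0.18 over all genes, and none of either list was called in any of the 3 comparisons. Of all genes, 13.0% were called in Runx1KO, 14.8% in ZebDKO and 15.8% between the knockouts.

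The mRNA level of genes with exons known to be set by Esrp proteins was read as well, since these are the transcripts on which Esrp1 acts. All 12 were tested. In Runx1KO 4 rose and 3 fell, beside 30.4% of all genes higher and 40.1% lower. In ZebDKO 1 rose and 7 fell, beside 26.9% of all genes higher and 52.5% lower. The ZebDKO split of the 12 became 5 and 3 under median-ratio scaling and 4 and 3 under quantile normalisation. Cd44, an adhesion receptor with a block of variable exons, was at 52.9, 54.3 and 48.8 TPM in control cells and 27.7, 27.5 and 26.3 TPM in Runx1KO, where it fell by a log2 difference of -0.91 (limma adjusted p = 3.75e-06). In ZebDKO Cd44 was at 45, 45.8 and 42.9 TPM, and that difference from control, -0.22 (adjusted p = 0.00499), did not pass under median-ratio scaling (-0.02) or quantile normalisation (-0.09). Fgfr2, the receptor whose epithelial exon is the classical Esrp target, was at 12.8, 11.7 and 13 TPM in control, 15.2, 15.8 and 15.9 TPM in Runx1KO and 8.6, 10.4 and 9 TPM in ZebDKO. It rose in Runx1KO by a log2 difference of 0.30 (limma adjusted p = 0.00158), also under both other scalings. Its difference from control in ZebDKO, -0.39 (adjusted p = 0.00255), did not pass under quantile normalisation (-0.17, adjusted p = 0.0594). Gene totals of these transcripts do not show which exons were used.

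The open chromatin and binding data of the same study place Runx factors and accessibility at some of these genes. The deposited ATAC-seq lists (regions accessible to transposase) hold 9427 peaks classed by the study as induced in Runx1KO, 8741 as dependent on Runx1 and 37481 as independent, and the ChIP-seq lists hold 10187 Runx1 peaks, 17595 Runx2 peaks in control cells and 15608 in Runx1KO cells. They combine replicates, so that overlap with a gene has no replicate error, and no such data of ZebDKO cells were used. A gene window ran from 10 kb before the outermost start to the end of the gene (mm9, GENCODE vM1), and 11148 genes tested for expression could be placed. Of the 8 members, 4 held a Runx1KO-induced peak (23.6% of all genes), 4 a Runx1-dependent peak (19.0%) and 7 a Runx1-independent peak (92.0%). A Runx1 ChIP peak lay at 3 members (33.4%), a Runx2 peak of control cells at 5 (62.9%) and a Runx2 peak of Runx1KO cells at 4 (64.5%). Long genes hold more peaks, and Rbm47, Rbfox2, Mbnl1 and Mbnl2 each spanned over 150 kb, as did 5.78% of all genes placed, against a median length of 21.1 kb.

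**Figure D5:**
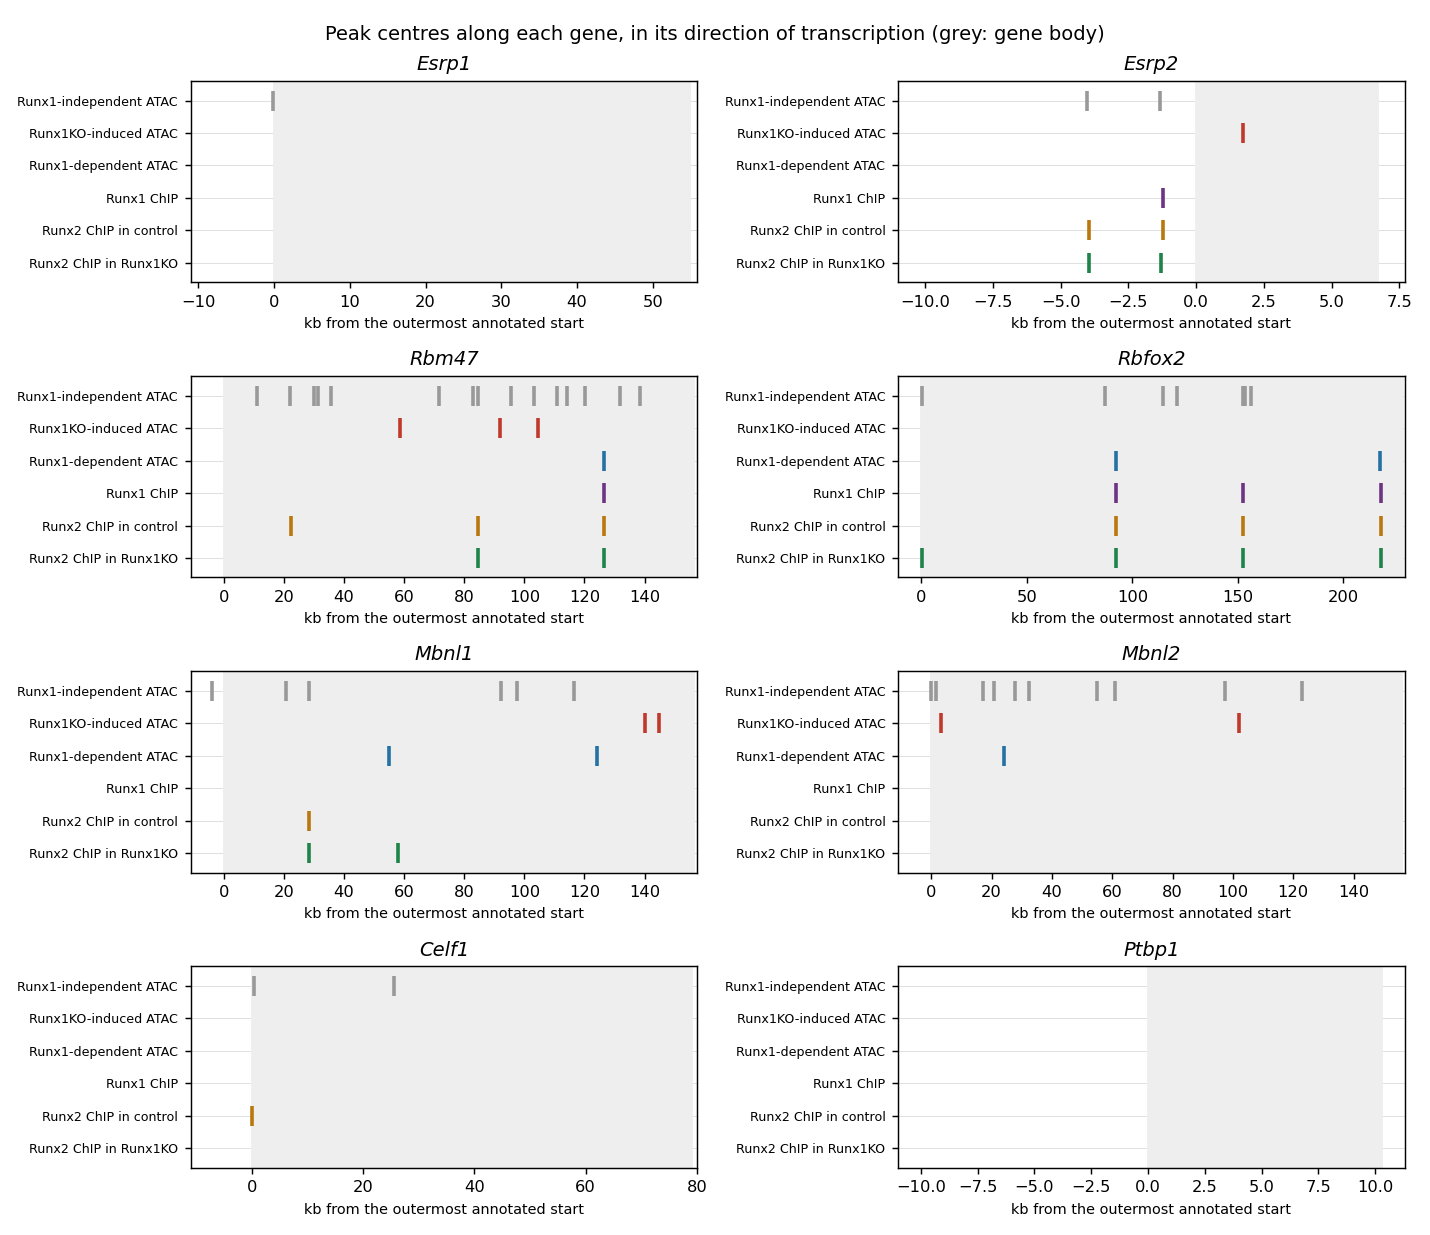
Peaks of the 6 deposited lists along the members' gene windows, drawn to scale by distance from the outermost transcript start in the direction of transcription; each row of a panel is one list. Rbm47 carries 3 Runx1KO-induced peaks and 1 Runx1-dependent peak with Runx1 and Runx2, Rbfox2 carries 2 Runx1-dependent peaks and 3 Runx1 peaks and no induced peak, Esrp1 carries 1 independent peak at its start, and Ptbp1 has no peak in any list.

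The regions bound by Runx1 within Rbfox2 and Rbm47 are given here since these are the members with both Runx1 binding and a change of level in Runx1KO. Each is 200 bp about the ChIP summit (mm9, + strand), with the Runx letters TGTGGT, or ACCACA on the other strand, in capitals.
Rbfox2 chr15:76919768-76919967, strongest Rbfox2 peak: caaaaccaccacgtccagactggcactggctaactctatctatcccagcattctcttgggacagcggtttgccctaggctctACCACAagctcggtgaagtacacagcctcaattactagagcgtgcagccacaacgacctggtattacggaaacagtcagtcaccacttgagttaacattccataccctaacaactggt
Rbfox2 chr15:76984948-76985147, Rbfox2 peak of lowest enrichment: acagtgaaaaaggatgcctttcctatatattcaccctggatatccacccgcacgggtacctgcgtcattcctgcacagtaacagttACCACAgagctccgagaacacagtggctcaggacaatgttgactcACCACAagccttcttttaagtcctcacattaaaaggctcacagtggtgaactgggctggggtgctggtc
Rbfox2 chr15:77045220-77045419, Rbfox2 peak of middle enrichment: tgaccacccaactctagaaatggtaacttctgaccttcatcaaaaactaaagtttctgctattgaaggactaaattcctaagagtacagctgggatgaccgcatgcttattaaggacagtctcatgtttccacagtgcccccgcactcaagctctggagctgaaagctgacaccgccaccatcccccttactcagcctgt
Rbm47 chr5:66437718-66437917, Rbm47 peak: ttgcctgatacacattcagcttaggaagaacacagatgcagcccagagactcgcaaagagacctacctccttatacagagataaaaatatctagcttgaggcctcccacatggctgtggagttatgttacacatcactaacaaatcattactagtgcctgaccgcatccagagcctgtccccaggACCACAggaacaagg
The first Rbfox2 window held 1 match, the next 2, the last 0, and the Rbm47 window 1. Of all 9977 Runx1 windows that could be read, 33.5% held a match, as did 14.1% of windows at the centre of Runx1-independent ATAC peaks.

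Rbfox2 (chr15:76909420-77137483, minus strand) had its strongest Runx1 peak at chr15:76919694-76920130, with a fold enrichment of 8.39 over background by the peak caller. It lies in an intron, also within the gene 1700109K24Rik, and inside the Runx1-dependent ATAC peak chr15:76919676-76920665, whose centre is 217313 bp downstream of the outermost Rbfox2 start. Runx2 was called there in both lines, with a fold enrichment of 11.97 in control and 5.49 in Runx1KO. The Runx1 peak chr15:77045230-77045405 (fold enrichment 5.55), also intronic, lay in the other Runx1-dependent ATAC peak, with Runx2 at 4.94 in control and 6.85 in Runx1KO. The remaining Runx1 peak, chr15:76984968-76985124 (fold enrichment 4.67), lay in a Runx1-independent ATAC peak at -804 bp from the nearest Rbfox2 transcript start. Runx2 was called there with a fold enrichment of 4.97 in control and 5.78 in Runx1KO. A further Runx2 peak, chr15:77137228-77137440 (fold enrichment 4.71), was called in Runx1KO only, 149 bp downstream of the outermost start. At 2 of the 3 Runx1 peaks, then, accessibility was of the Runx1-dependent class, and its part in the lower Rbfox2 level was not tested.

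Rbm47 (chr5:66407788-66564356, minus strand) had a single Runx1 peak, chr5:66437745-66437969, with a fold enrichment of 6.13, in an intron and inside the Runx1-dependent ATAC peak chr5:66437509-66438206. Runx2 was called at it with a fold enrichment of 5.13 in control and 4.27 in Runx1KO. In all, Rbm47 held 3 Runx2 peaks of control cells and 2 of Runx1KO cells. The gene also held 3 Runx1KO-induced ATAC peaks without a Runx peak, at 58490, 91930 and 104423 bp downstream of the outermost start, and the middle one lay at -187 bp from an internal transcript start. Rbm47, higher in Runx1KO, thus held regions of both classes.

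Zeb factors recognise E-boxes, and the letters CAGGTG and CAGGTA were counted on both strands in 200 bp about the centre of each ATAC peak. CAGGTG occurred in 38.3% of all Runx1KO-induced windows, 9.05% of Runx1-dependent windows and 17.1% of Runx1-independent windows, and CAGGTA in 18.5%, 3.29% and 7.64%. At the members, the induced windows of Esrp2 and Rbm47 with the most CAGGTG matches are printed with either E-box in capitals (mm9, + strand), CACCTG and TACCTG being the other strand.
Esrp2 chr8:108659049-108659248, Esrp2 induced peak: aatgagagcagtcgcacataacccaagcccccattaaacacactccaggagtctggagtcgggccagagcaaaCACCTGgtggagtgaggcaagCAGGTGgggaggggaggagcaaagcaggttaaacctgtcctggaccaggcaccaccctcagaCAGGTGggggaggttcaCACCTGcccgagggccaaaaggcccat
Rbm47 chr5:66459833-66460032, Rbm47 induced peak: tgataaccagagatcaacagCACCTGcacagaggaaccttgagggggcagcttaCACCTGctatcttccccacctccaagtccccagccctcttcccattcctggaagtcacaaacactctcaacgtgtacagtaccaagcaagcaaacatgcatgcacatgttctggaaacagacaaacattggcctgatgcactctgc
The Esrp2 window held 4 CAGGTG matches and the Rbm47 window 2. The other 2 induced windows of Rbm47 held none of either kind. Both induced windows of Mbnl1 held E-boxes, 1 CAGGTG in one and 2 CAGGTA in the other, as did 1 of the 2 of Mbnl2.

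Esrp2 (chr8:108654219-108660874, minus strand) held its induced peak, chr8:108658899-108659399, in an intron at -153 bp from the nearest transcript start, although its mRNA was at most 0.2 TPM in Runx1KO. A Runx1 peak, chr8:108662002-108662190 (fold enrichment 3.55), lay at -1222 bp from its start and inside the neighbouring gene 1810019D21Rik. The Esrp2 window also held 2 Runx2 peaks of control cells and 2 of Runx1KO cells. Esrp1 (chr4:11259080-11313930, minus strand), the member with the opposite combination, had no induced, Runx1-dependent or Runx peak in its window and a single Runx1-independent peak, chr4:11313659-11314571, centred at -185 bp from its start. The window of 200 bp at that peak held none of the Runx or Zeb letters.

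Mbnl1 (chr3:60277032-60433670, plus strand) held 2 induced and 2 Runx1-dependent ATAC peaks, and no Runx1 peak, with an mRNA level in Runx1KO that did not differ detectably from control. It also held 1 Runx2 peak of control cells and 2 of Runx1KO cells. Mbnl2 (chr14:120674891-120830919, plus strand) held 2 induced peaks and 1 dependent peak, and no Runx1 or Runx2 peak. Celf1 (chr2:90780539-90859654, plus strand) held 2 Runx1-independent peaks and 1 Runx2 peak of control cells. Ptbp1 (chr10:79317172-79327516, plus strand) held no peak of any list. Of 8 RefSeq promoters (GRCm38.p6, 300 bases each) of 5 members, 1 of Mbnl1 held CAGGTA, as did 3929 of 32851 promoters, and 1 of Rbm47 held TGTGGT, as did 16.8%. Esrp1, Esrp2 and Rbfox2 were not analysed for promoters.

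The genes whose log2(TPM + 1) followed each epithelial member most closely over the 9 libraries, which form only 3 groups, are given as a description. For Esrp1 these were Myb (Pearson r = 0.997), Thbs1 (0.996), Prkcz (0.995), Klf2 (0.995) and Kazn (0.995), and 45 of 13373 genes had an r above 0.99. For Rbm47 they were Grb2 (0.994), Itm2a (0.994), Kpna1 (0.993), Foxk2 (0.992) and Gpd2 (0.992), with 13 genes above 0.99. For Esrp2, whose values are near 0, the closest genes reached only 0.827 (Mir6920) and 0.795 (Dbil5).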

How the data were processed

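RNA-seq was available as TPM values deposited by the authors for 9 libraries, 3 each of control, Runx1KO and ZebDKO, and for the first 6 in a separate table with other gene lengths. The authors trimmed reads with Trim Galore, used STAR for alignment to mm9, discarded duplicates and counted RefSeq genes with featureCounts 1.6.2. Gene lengths and the strand setting are not given in the sources used here, so reads of overlapping genes cannot be told apart. Peaks were called by the authors with MACS2. The deposited ATAC lists hold peaks found in at least 2 of 3 replicates. By their values, not by a stated method, the 3 classes part at 2-fold in the authors' own comparison, whose log2 and −log10 p columns were not used. The deposited ChIP lists, from combined replicates, give a score, a fold enrichment ratio and −log10 p and q values. The fold enrichments are printed as deposited.

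Genes reaching 1 TPM in 3 or more of 6 libraries were tested on log2(TPM + 1) by limma (3.58.1, R 4.3.3, trend, Benjamini-Hochberg over all genes tested), two-sided, within each pair of groups. The pseudocount understates changes of low genes. Log2 differences are given ± SE. Median-ratio scaling, quantile normalisation, other pseudocounts, filters, 1 fit over all 9 libraries and the 6-library table were alternatives, as was leaving out each library. Scripts were tested on simulated data. From each list of related genes, up to 3 called genes with the largest rise and 3 with the largest fall per comparison were named, except 1 that is not reported here; Ptbp2, Cd44 and Fgfr2 were named after their values were seen. The members and lists were chosen with earlier results of these data known. Dropped from the 6-library table were 4 entries whose names had become dates.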

Additional observations from a re-analysis of the deposited data

Results flagged for a closer look

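Besides Esrp1, the 6 members tested in that comparison each differed between ZebDKO and Runx1KO by a limma test (adjusted p under 0.05), on the log2(TPM + 1) scale with 3 libraries a group. In the same test 29.8% of 13071 genes were higher and 50.2% lower, so passing it was common among all genes. Rbm47 (-0.79) and Mbnl1 (-0.75) were lower in ZebDKO under every scaling run, and Rbfox2 (0.33) was higher. The differences of Mbnl2 (-0.25), Celf1 (-0.14) and Ptbp1 (0.0867) depended on the scaling: under quantile normalisation they were -0.03, 0.04 and 0.01, none past the threshold. Esrp1 (-0.85) also met the threshold, but it entered the test only through the Runx1KO libraries and had to differ, so its value, from levels between 0.2 and 1.3 TPM, is no support.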

How the results depend on the processing

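Of 296 single-member values under alternative settings, 281 kept their direction and their side of the threshold, 9 moved to an adjusted p above 0.05, 1 moved below it and 5 turned sign. The sign changes were those of Mbnl1 in Runx1KO without control replicate 2 (-0.0042) or 3 (-0.0089), where leaving out each library in turn gave -0.0089 to 0.0719, of Rbm47 in ZebDKO under median-ratio scaling (0.00996), and of Celf1 between ZebDKO and Runx1KO under median-ratio scaling (0.0244) and quantile normalisation (0.0379). Median-ratio scaling moved the median of all genes by 0.188 in ZebDKO against control and 0.154 in ZebDKO against Runx1KO, and the called genes went from 973 higher and 944 lower to 1183 and 661, and from 863 and 1203 to 1058 and 908. Members called in Runx1KO went from 1 to 0 with a filter of 5 TPM, which removes Esrp1 and Rbm47, and to between 0 and 1 with 1 library left out, since Esrp1 then has 2 Runx1KO libraries and cannot pass the filter. At a limit of 1.3-fold, 3 members were called in Runx1KO, 2 in ZebDKO and 3 in ZebDKO against Runx1KO. Among all genes 4857 of 13067, 6746 of 12974 and 6780 of 13071 were called there. In the last comparison a pseudocount of 0.1 called 2 (Esrp1 and Rbm47), beside 1016 genes higher and 1590 lower of 13071. A pseudocount of 0.5 called 1 (Esrp1), beside 951 genes higher and 1392 lower. Esrp1, counted wherever Runx1KO was compared, entered only through the Runx1KO libraries and had to differ. Leaving out 1 library gave 1287 to 1419, 1560 to 1782 and 1721 to 1856 called genes. Members past the adjusted p were 3 in place of 5 in Runx1KO with the 5 TPM filter and without Runx1KO replicate 1 (3 to 5 over the libraries left out), and under quantile normalisation 3 in place of 5 in ZebDKO and 4 in place of 7 between knockouts. Where not stated otherwise, the cause was not tested.

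The replicate numbers did not pair the samples, with correlations of same-numbered deviations from -0.0495 to 0.0399. A fit with the replicate block called 1709 genes in Runx1KO, 1923 in ZebDKO and 2073 between the knockouts, against 1700, 1917 and 2066, and changed no call of a member.

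Peaks within 1 kb of a transcript start were found at 2 of 8 members for the induced list (6.60% of all genes), 1 for the Runx1-dependent list (4.24%), 1 for Runx1 (20.2%), 4 for Runx2 of control cells (48.8%) and 2 for that of Runx1KO cells (51.5%). With 50 kb upstream, 5 members held a Runx1 peak (49.0% of all genes) and 7 a Runx2 peak of Runx1KO cells (78.6%). Limits are the unknown depth of the TPM values, the values of Esrp1 and Esrp2 near the rounding step of 0.1 TPM, and peak lists without replicates.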

Other observations

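Without the level filter, Esrp1 in ZebDKO against control had a log2 difference of 0.26 (n = 3 and 3), from 0 TPM in each control library to 0.2 TPM in each ZebDKO library. The values have no spread within either group at the rounding of the table. Esrp1 entered this fit only through the ZebDKO libraries and had to differ, so no p is given. Esrp2 in ZebDKO against control gave -0.08 (limma adjusted p = 0.476) and in Runx1KO -0.04 (adjusted p = 0.708).

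Rbm4, a splicing regulator of muscle and fat differentiation, moved in opposite directions in the knockouts: it was at 15.7, 14.9 and 15.8 TPM in control, 10.1, 10.6 and 10.2 TPM in Runx1KO and 20.8, 21.9 and 22.5 TPM in ZebDKO, with a log2 difference between the knockouts of 1.01 (limma adjusted p = 1.21e-06). Raver2, a cofactor of Ptbp1, was at 1.6, 1.7 and 2.6 TPM in control and 0.2, 0.4 and 0.5 TPM in ZebDKO, a log2 difference of -1.11. It entered that test only through the control libraries and had to differ, so no p is given. It is counted above among the regulators that fell.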
